A study of Caenorhabditis elegans with 6 samples.

Results

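Glutathione S-transferases are enzymes that join the tripeptide glutathione to reactive, electron-poor molecules such as drugs, pesticides and the aldehydes left by oxidised lipids, which makes these easier to export. In Caenorhabditis elegans, a nematode, the family is large, many of its genes lie in rows of neighbours, and several are switched on by the transcription factor SKN-1 during oxidative stress. The genes described here are all those named gst, gsto or gstk with a number in the deposited table, 49 of the 22416 genes with a count. They were taken by name. By the table's descriptions and textbook classes 4 are of the pi class (gst-1, gst-10, gst-23 and gst-25), 4 of the omega class (gsto-1, gsto-2, gsto-3 and gst-44), 2 of the zeta class (gst-42 and gst-43) and 2 of the kappa class (gstk-1 and gstk-2). The other 37 numbered gst genes were not sorted further.

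Poly(A) RNA came from pools of whole worms of strain CL2006, collected on day 6 of adulthood and kept at 20 °C. All worms in both groups carried pCL12, which makes the human amyloid beta peptide 1-42 from the promoter of the body wall muscle gene unc-54, together with the plasmid pRF4, which carries a mutant rol-6. For 2 generations they were fed HT115 bacteria, either with an empty vector (EV) or making double-stranded RNA against the 3′UTR of gtr-1, a receptor gene. The libraries labelled gtr-1 RNAi are called gtr-1-labelled here. Each group had 3 libraries, 1 in each of batches 2, 3 and 4, so that every batch held 1 pair. Nothing in the labels says how far batches were separate beyond naming 3 sets of worms, so p-values reflect only how far these pairs differ from each other, which may be technical.

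Library totals ran from 43067539 to 59812227 counts, and a count of 0 allows up to 0.0536 to 0.0729 CPM, the count scaled to a common library size, depending on the library and for counting error only. The RNAi target did not separate the groups. Transcripts of gtr-1 averaged 0.408 ± 0.166 CPM under empty vector and 0.461 ± 0.247 CPM in the gtr-1-labelled libraries (SD, n = 3 each, edgeR adjusted p = 0.886), and each direction below rests on that label. In whole-worm RNA, fewer cells of a type and less RNA per cell cannot be told apart.

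The family was dominated by 2 genes. Levels of different genes are given in CPM per kilobase of exon. On that scale gst-1, a pi-class enzyme reported to protect dopamine neurons from manganese, stood under empty vector at 203, 249 and 245 in batches 2, 3 and 4, and at 195, 237 and 237 in the gtr-1-labelled libraries. gst-7 followed with 121, 159 and 156 CPM per kilobase with the empty vector and 124, 152 and 160 in the gtr-1-labelled libraries. Both were lower in batch 2 than in batches 3 and 4 under either treatment, and their ranges over the 6 libraries did not touch. Together gst-1 and gst-7 took 54.1 ± 5.71% of all counts of the family with the empty vector and 49.4 ± 7.63% in the gtr-1-labelled libraries (SD, n = 3 each).

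The next levels lay well below. The mean levels of gst-13, gst-36 and gst-10 with the empty vector were 36.1 ± 3.96, 30.1 ± 1.61 and 30 ± 5.96 CPM per kilobase (SD, n = 3), and those of gst-36 and gst-10 did not differ beyond their spread. gst-13 lay above gst-36 in each of the 6 libraries. The omega-class gene gsto-1 came next over all libraries but was the least even of the abundant members, at 19.7 ± 17.7 with the empty vector. In all, 18 members averaged 5 CPM per kilobase or more over the 6 libraries, and 19 averaged under 1. gst-6, at 4.80 ± 3.82 with the empty vector, and gst-22, at 5.51 ± 1.43, lay just under that average over all libraries, and gst-28, at 7.67 ± 2.44, was the nearest above it. The level of 5 was chosen after the values were seen.

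**Figure D1:**
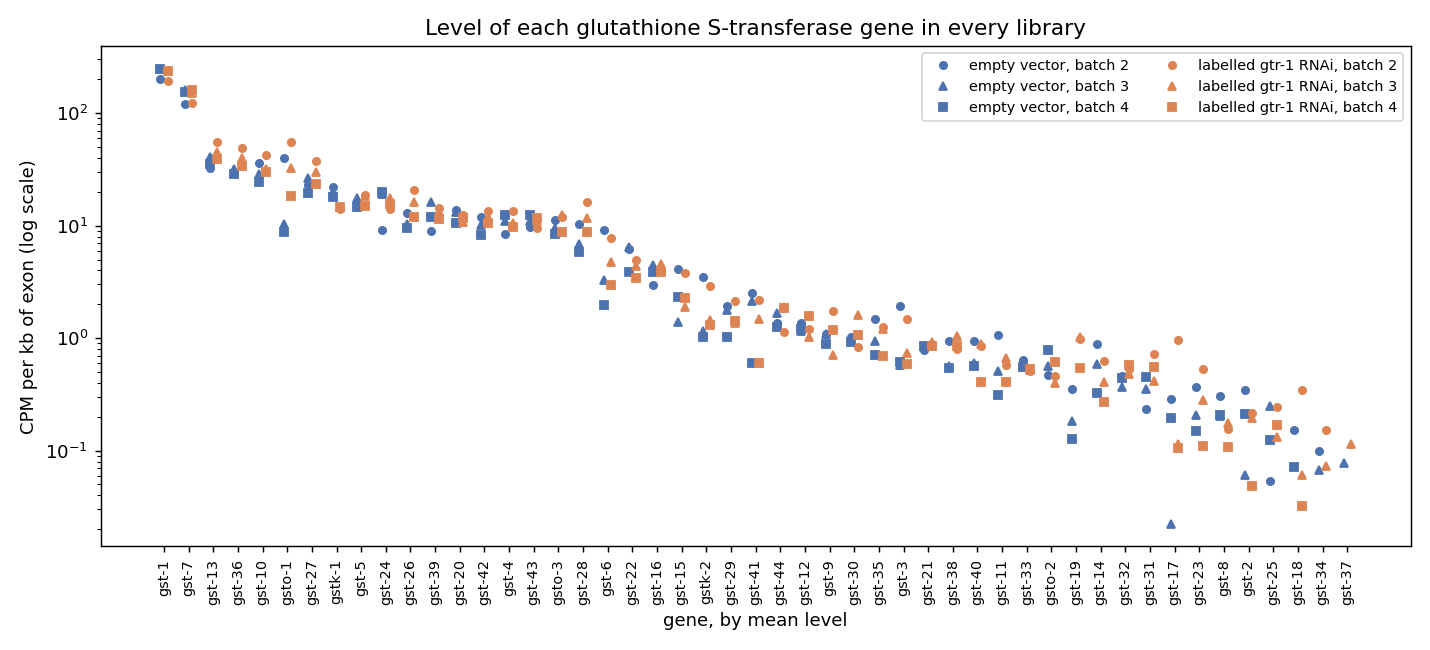
CPM per kilobase of exon, on a log axis, of each of the 49 glutathione S-transferase genes in every library, ordered by mean level; colour gives the treatment and the symbol gives the batch, and values of 0 are not drawn. gst-1 and gst-7 stand above all others, and the points of batch 2 (circles) are the highest for gsto-1 and gst-6.

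Too few counts left 6 members untested. These were gst-8, gst-18, gst-23, gst-25, gst-34 and gst-37, with at most 20 counts in any library. gst-37 had 0 counts in 4 libraries, and 2 and 4 counts in the empty vector library and the gtr-1-labelled library of batch 3. The comparisons below cover the 43 other genes and not the whole family.

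As a family the genes took 0.0557, 0.0522 and 0.0499% of the counts under empty vector in batches 2, 3 and 4, and 0.0632, 0.0532 and 0.0504% in the gtr-1-labelled libraries. The share was higher in each gtr-1-labelled library than in its pair, but the groups overlapped. Summed over all members, the level under empty vector was 521 ± 22.2 CPM, against 559 ± 27.1 CPM in the gtr-1-labelled libraries (SD, n = 3 each). Without gst-1 and gst-7 the sum was 239 ± 27.5 and 284 ± 55.1 CPM, and its log2 ratios in batches 2, 3 and 4 were 0.37, 0.20 and 0.15.

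The comparison between treatments asked which members differed in the gtr-1-labelled libraries, within batch pairs. No member passed edgeR's quasi-likelihood test at an adjusted p under 0.05 over the 15519 genes tested, where 0.0902% of all genes were called higher and 0.0% lower. The smallest adjusted p of a member was 0.145, for gst-28. At an unadjusted p under 0.05, 8 of the 43 (18.6%) were higher, against 4.99% of all genes tested, and 1 (2.33%) was lower, against 5.68%. The 8 were gst-28, gst-19, gsto-1, gst-26, gst-36, gst-27, gst-10 and gst-13, and the lower gene was gstk-1. DESeq2 called gst-28 and gst-26 higher at an adjusted p under 0.05, 2 of the 39 members it tested (5.13%), against 1.74% of genes higher and 0.667% lower. Over the tested members the median log2 fold change came to 0.11, and over all genes tested to -0.03. It was 0.04, 0.18 and 0.06 in the pairs of batches 2, 3 and 4, where all genes stood at -0.07, 0.00 and -0.02.

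**Figure D2:**
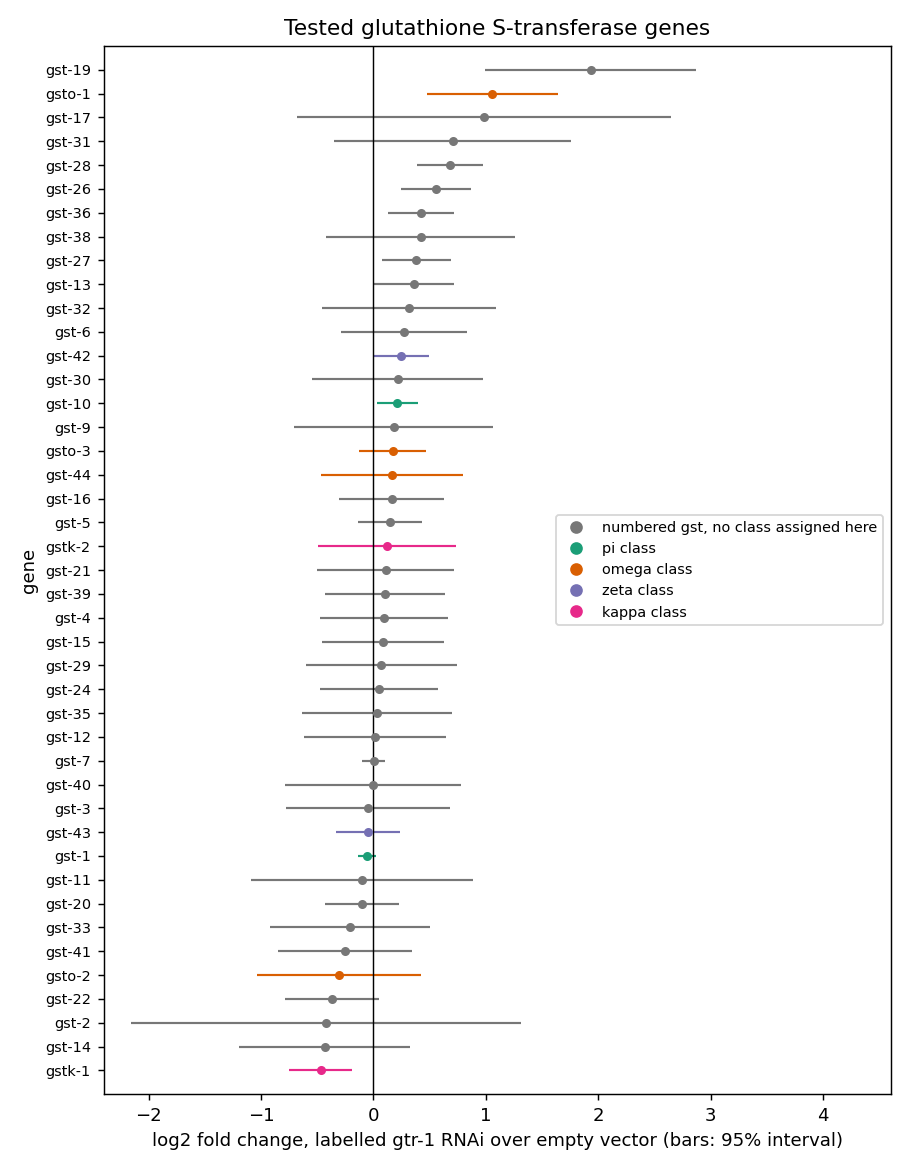
Log2 fold change of each of the 43 tested members, labelled gtr-1 RNAi over empty vector, with its 95% interval from edgeR; colour gives the class. The interval of 34 members holds 0; gst-19 and gsto-1 have the highest values and gstk-1 the lowest.

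Members that lay on 1 side in all 3 pairs were 14 higher (32.6%, against 13.5% of all genes tested) and 8 lower (18.6%, against 22.6%). In 3 members every gtr-1-labelled library lay above every empty vector library (gst-36, gst-19 and gst-32; 6.98%, against 2.92%), and in 2 every one lay below (gstk-1 and gst-33; 4.65%, against 3.07%). These counts are given for members that passed the filter on low counts only.

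The neighbours gst-26, gst-27 and gst-28 were all higher in the gtr-1-labelled libraries of every pair. They lie side by side on the minus strand of chromosome II in the genome build WBcel235, at 15163817 to 15164553, 15164890 to 15165731 and 15166194 to 15167577. gst-28 (WBGene00001776) stood at 7.97, 5.20 and 4.42 CPM with the empty vector in batches 2, 3 and 4, and at 12.4, 9.02 and 6.76 CPM in the gtr-1-labelled libraries. Batch 2 was the highest under both treatments, and its empty vector library lay above the gtr-1-labelled library of batch 4. The log2 fold change of gst-28 was 0.68 ± 0.12 (SE), with pair values of 0.63, 0.79 and 0.61, an edgeR adjusted p of 0.145 and a DESeq2 adjusted p of 0.0103. Without the batch 2 pair edgeR called it at a log2 fold change of 0.71. In that setting 7.69% of all genes were called, against 0.0902% with all pairs kept. Leaving out only the empty vector library of batch 2 also gave 0.71. The batch term then takes up the library left alone, so that setting is not a separate test.

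gst-26 (WBGene00001774) stood at 8.96, 7.12 and 6.50 CPM with the empty vector and at 14.3, 11.2 and 8.19 CPM in the gtr-1-labelled libraries, in batch order, and the groups overlapped. For gst-26 the log2 fold change was 0.56 ± 0.12 (SE, edgeR adjusted p = 0.237, DESeq2 adjusted p = 0.0416). gst-27 (WBGene00001775), the most abundant of the row, stood at 17.2, 19.5 and 14.4 CPM and at 27.9, 22.1 and 17.4 CPM. For gst-27 the pair of batch 2 gave most of the difference, with a log2 fold change of 0.69 there and of 0.18 and 0.27 in batches 3 and 4, against 0.38 ± 0.12 over all pairs (SE, edgeR adjusted p = 0.393).

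The row that holds these genes runs over 21.6 kb and has 9 members, of which 8 were tested. Members were put in 1 row where no more than 2 other protein-coding genes lay between them. The median log2 fold change of the row was 0.35, with 3 of 8 higher at an unadjusted p under 0.05, against 4.99% of all genes tested, and 5 of 8 higher in every pair, against 13.5%. The other genes of the row gave values from 0.03 (gst-35) to 0.71 (gst-31), with edgeR adjusted p from 0.582 to 0.976. gst-31 and gst-32 had 9 to 27 counts per library, so their values are imprecise. Where members have near-identical stretches the authors' counting may have split or dropped their reads, and likeness of sequence was not analysed here.

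Of the 49 members, 25 lay in 4 such rows and 24 lay alone. A second row of 9 on chromosome II, from gst-20 to gst-18 over 22.7 kb, had a median log2 fold change of 0.07 over 8 tested genes. In it gst-19 (WBGene00001767, 13625545 to 13627145) had the highest fold change of any tested member, on few counts. The gst-19 counts were 13, 5 and 4 with the empty vector and 35, 38 and 19 in the gtr-1-labelled libraries, and the groups did not overlap. The log2 fold change was 1.93 ± 0.37 (SE, 95% interval from 1.00 to 2.87, edgeR adjusted p = 0.179, DESeq2 adjusted p = 0.351). edgeR called gst-19 at 2.3 without the batch 2 pair, where 7.69% of all genes were called. Leaving out either library of that pair also gave 2.3. That is not a separate test, as the batch term takes up the library left alone. The next gene, gst-17, shares 351 bases of exon on the same strand with gst-18, and its pair values of 1.63, 1.37 and -0.69 did not keep 1 sign.

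**Figure D3:**
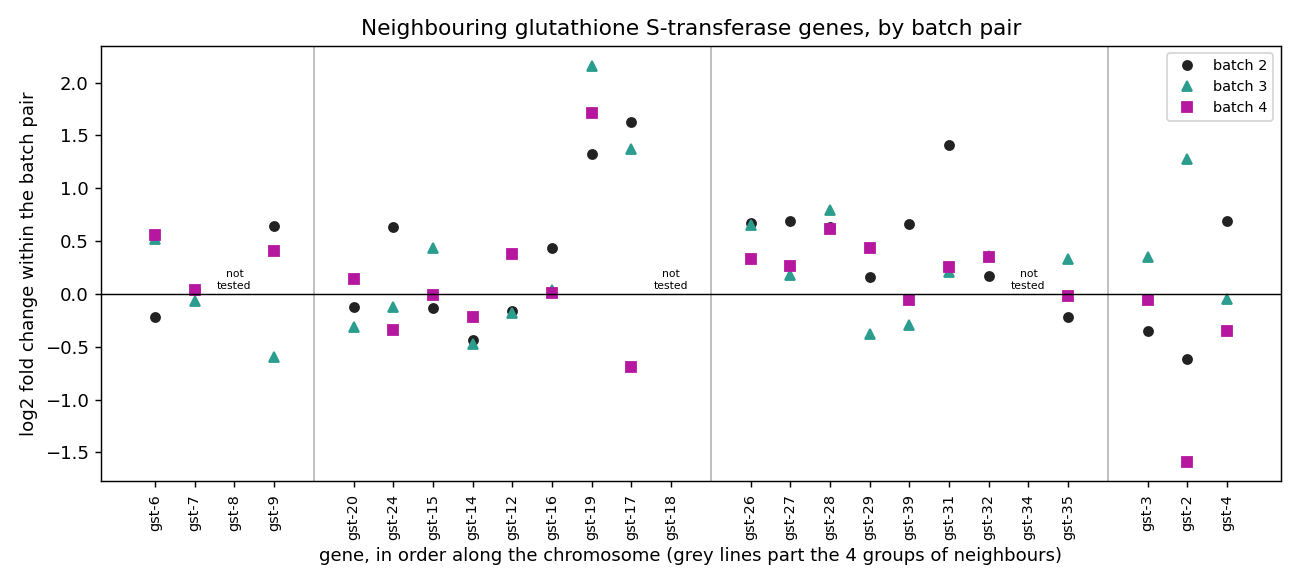
Log2 fold change within each batch pair of the members that lie in rows, in their order along the chromosome, with grey lines between the 4 rows and colour and symbol for the batch. The points of gst-26, gst-27 and gst-28 and those of gst-19 are all above 0, whereas gst-24, gst-39 and gst-4 are above 0 in batch 2 and below it in batches 3 and 4.

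The row of gst-6 to gst-9 (4 members over 13.7 kb, chromosome II) and that of gst-3, gst-2 and gst-4 (3.7 kb, chromosome IV) held no member at an unadjusted p under 0.05. gst-6 stood at 7.01, 2.50 and 1.51 CPM with the empty vector and at 6.00, 3.61 and 2.25 CPM in the gtr-1-labelled libraries, so it was lower there in batch 2 and higher in batches 3 and 4. The value over all pairs was 0.27 ± 0.22 (SE, edgeR adjusted p = 0.673), and it was 0.55, 0.15 and 0.14 without the pair of batch 2, 3 or 4.

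Outside the rows, gst-13 and gst-36 were higher in every pair and most so in batch 2. gst-36 (WBGene00001784, chromosome X, 9861646 to 9862960) stood at 22.4, 24.2 and 21.9 CPM with the empty vector and at 37.2, 29.96 and 25.5 CPM in the gtr-1-labelled libraries, and the groups did not overlap. The log2 fold change of gst-36 was 0.42 ± 0.11 (SE, edgeR adjusted p = 0.328, DESeq2 adjusted p = 0.0563). Its exons share 93 bases with scav-5 on the opposite strand, so that some reads may belong to that gene if strand was not used. gst-13 (WBGene00001761, chromosome II, 9231457 to 9232344) stood at 25.4, 31.5 and 27.6 CPM and at 43.5, 35.4 and 30.4 CPM. Its pair values were 0.77, 0.17 and 0.14, and its log2 fold change 0.36 ± 0.14 (SE, edgeR adjusted p = 0.459). Without the batch 2 pair the log2 fold changes were 0.16 for gst-13, 0.27 for gst-36 and 0.23 for gst-27.

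Among the pi class, gst-10 was higher in every pair and gst-1 slightly lower in every pair. gst-10 (WBGene00001758, chromosome V, 2561690 to 2564645), which conjugates the lipid aldehyde 4-hydroxynonenal, stood at 26.2, 20.9 and 17.7 CPM with the empty vector and at 30.6, 22.7 and 21.7 CPM in the gtr-1-labelled libraries. The groups overlapped, while each pair differed in the same direction, and the log2 fold change was 0.21 ± 0.07 (SE, edgeR adjusted p = 0.401). gst-1 (WBGene00001749, chromosome III, 9059331 to 9060181) had a log2 fold change of -0.06 ± 0.03 (SE), its 95% interval running from -0.14 to 0.02 (n = 3 pairs, edgeR adjusted p = 0.555). The interval for gst-7 ran from -0.10 to 0.10 around 0.00 (edgeR adjusted p = 0.990).

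Omega-class enzymes reduce dehydroascorbate and mixed disulphides rather than joining glutathione to most substrates, and GSTO-1 of the worm has been placed in the intestine. gsto-1 (WBGene00016204, chromosome III, 7945542 to 7947018) stood at 32.4, 8.26 and 7.07 CPM with the empty vector in batches 2, 3 and 4, and at 45.1, 26.4 and 14.7 CPM in the gtr-1-labelled libraries. It was higher in each pair, but the empty vector library of batch 2 lay above both gtr-1-labelled libraries of batches 3 and 4. The log2 fold change was 1.06 ± 0.23 (SE, 95% interval from 0.47 to 1.64), or 2.08-fold, with an edgeR adjusted p of 0.234 and a DESeq2 adjusted p of 0.0564. Its pair values were 0.48, 1.67 and 1.05. edgeR called gsto-1 without the batch 2 pair (1.37) and without the batch 3 pair (0.76). In those settings 7.69% and 1.55% of all genes were called. edgeR also called it without only the empty vector (1.38) or gtr-1-labelled (1.37) library of batch 2. It was not called without only the empty vector (0.82) or gtr-1-labelled (0.76) library of batch 3. Settings without 1 library are not separate tests, as the batch term takes up the library left alone. gsto-1 shares 52 bases of exon with kle-2 on the opposite strand. Of the 8 intestine markers, all measured and none at 0, the summed level ran from 392 to 709 CPM with the empty vector and from 472 to 763 CPM in the gtr-1-labelled libraries. Of these markers 3 were higher at an unadjusted p under 0.05, against 4.99% of all genes tested. Their part in the values of gsto-1 was not tested. The other omega genes gave log2 fold changes of 0.17 ± 0.12 (gsto-3), 0.16 ± 0.25 (gst-44) and -0.31 ± 0.29 (gsto-2).

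Kappa-class enzymes are a separate fold found in mitochondria and peroxisomes. gstk-1 (WBGene00014251, chromosome II, 9656705 to 9657719) stood at 17.4, 15.6 and 14.1 CPM with the empty vector and at 10.9, 11.4 and 11.5 CPM in the gtr-1-labelled libraries. Every gtr-1-labelled library lay below every empty vector library. The log2 fold change of gstk-1 was -0.47 ± 0.11 (SE, 95% interval from -0.75 to -0.19, edgeR adjusted p = 0.271, DESeq2 adjusted p = 0.142), with pair values of -0.67, -0.45 and -0.29. The paralog gstk-2, at 2.64, 0.875 and 0.778 CPM with the empty vector and at 2.19, 1.11 and 1.00 CPM in the gtr-1-labelled libraries, was highest in batch 2 under both treatments, and gave 0.12 ± 0.24 on the log2 scale (SE, edgeR adjusted p = 0.867), or 0.35, 0.02 and 0.01 without the pair of batch 2, 3 or 4.

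**Figure D4:**
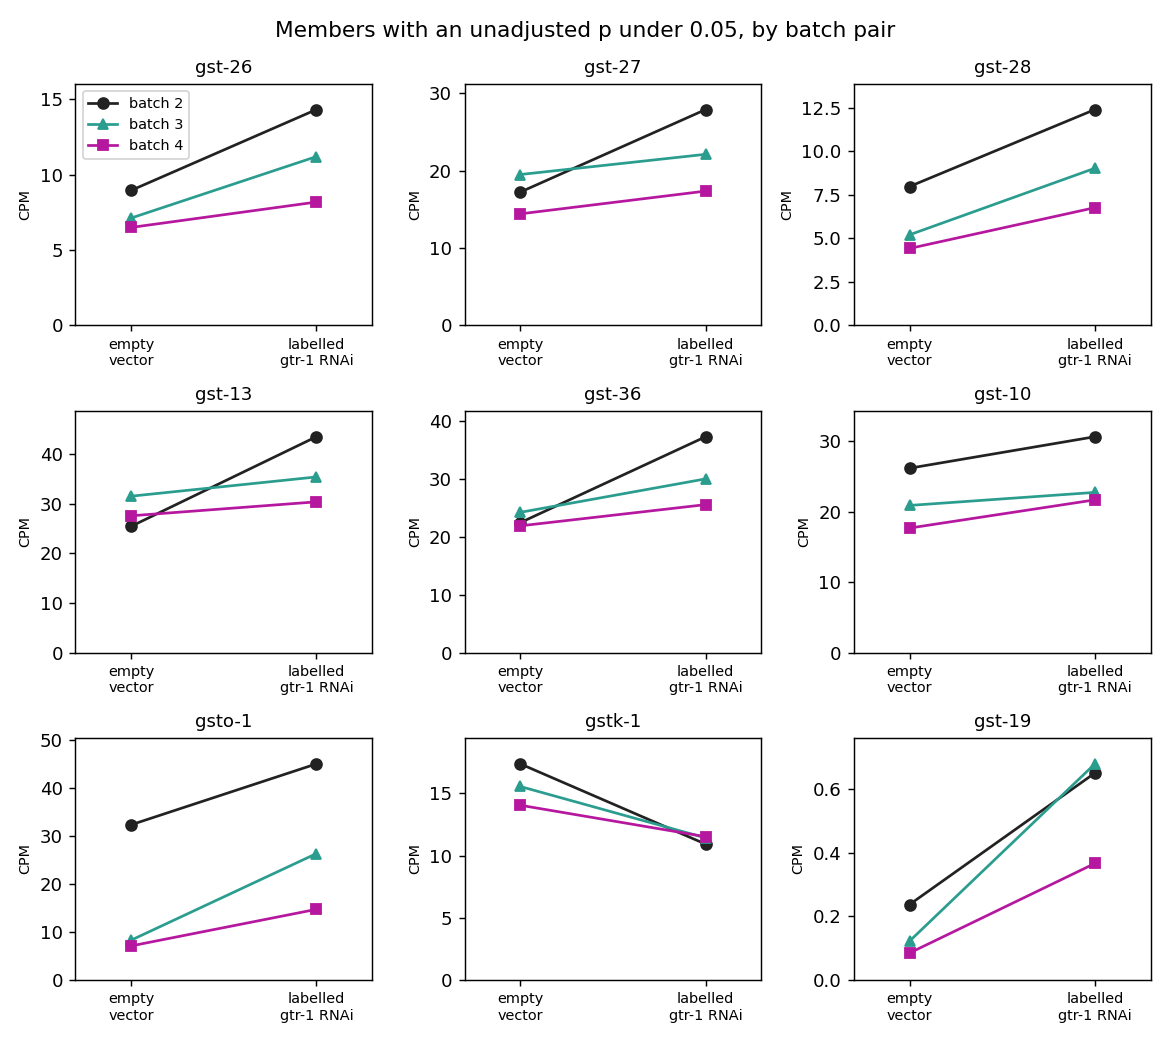
CPM of the 9 members with an unadjusted p under 0.05, with a line from the empty vector library to the gtr-1-labelled library of each batch and axes that start at 0. All lines of gstk-1 point down and those of the other genes up; the lines of gst-13 and gst-27 are steepest in batch 2 and that of gsto-1 in batch 3.

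gst-4, the gene behind the usual fluorescent reporter of SKN-1 activity, stood on opposite sides in different pairs. It stood at 6.12, 7.997 and 9.07 CPM with the empty vector and at 9.90, 7.74 and 7.09 CPM in the gtr-1-labelled libraries. The pair values were 0.69, -0.05 and -0.35, and the log2 fold change was 0.10 ± 0.22 (SE, 95% interval from -0.47 to 0.67, edgeR adjusted p = 0.884). It shares 65 bases of exon with dhs-12 on the same strand. gst-24, another enzyme that can conjugate 4-hydroxynonenal, stood at 6.70, 14.2 and 14.6 CPM with the empty vector and at 10.4, 13.1 and 11.5 CPM in the gtr-1-labelled libraries. Its empty vector library of batch 2 was the lowest of the 6, and its log2 fold change was 0.05 ± 0.21 (SE, edgeR adjusted p = 0.940).

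In the batch 2 pair, 8 of the 18 abundant members had a log2 fold change above 0.6. They were gst-13, gst-36, gst-27, gst-24, gst-26, gst-39, gst-4 and gst-28, a set picked for these values. In batch 3 their values ran from -0.29 (gst-39) to 0.79 (gst-28), and in batch 4 from -0.35 (gst-24 and gst-4) to 0.61 (gst-28). No share of all genes above 0.6 in the batch 2 pair was taken. The count of 8 alone therefore does not tell the members from all genes. Across those 18 members the pair values of batches 3 and 4 were correlated at a Pearson r of 0.87, those of batches 2 and 3 at 0.40 and those of batches 2 and 4 at 0.26. Over all 43 tested members, low ones included, the same coefficients were 0.30, 0.32 and 0.25. Over all genes tested they were 0.64, -0.06 and -0.05. Genes of 1 library share its depth and scaling and are not independent replicates.

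Of 8 members reported to depend on SKN-1 under oxidative stress (gst-4, gst-7, gst-10, gst-12, gst-13, gst-14, gst-30 and gst-38), 2 were higher at an unadjusted p under 0.05, against 4.99% of all genes tested, and none was lower, against 5.68%. Their median log2 fold change was 0.16, and the pair medians were -0.06, 0.04 and 0.18. The highest was gst-38 at 0.42 ± 0.33 and the lowest gst-14 at -0.43 ± 0.30 (SE), both on at most 50 counts per library. skn-1 itself stood at 337 ± 72.6 CPM under empty vector, against 337 ± 59.6 CPM in the gtr-1-labelled libraries (SD, n = 3 each), and its fold change on the log2 scale was 0.01 ± 0.04 (SE, edgeR adjusted p = 0.969). wdr-23, which marks SKN-1 for breakdown, was at -0.08 ± 0.05 (SE, edgeR adjusted p = 0.575). Among the 12 genes of SKN-1 and its regulators 1 was higher (nsy-1, a kinase upstream of SKN-1, 0.11 ± 0.04) and 1 lower (ddb-1, an adaptor of the CUL-4 ubiquitin ligase, -0.09 ± 0.03) at an unadjusted p under 0.05, and none passed the adjusted test in edgeR or DESeq2. Of all genes tested, 4.99% were higher and 5.68% lower at that unadjusted threshold. Of 6 SKN-1 targets outside the family 1 was higher at it, sdz-8 at 0.59 ± 0.22 (SE, edgeR adjusted p = 0.442), and none was lower. The median log2 fold change of the 6 was -0.07, with 2 above 0 and 4 below. gcs-1 and gsr-1 are in this list and also among the genes of glutathione synthesis and reduction below.

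Several members differed between batches. In the same fit, 11 of the 43 tested members (25.6%) differed between batches at an edgeR adjusted p under 0.05, against 43.3% of all genes tested. Batch 2 was the highest in 9 of them (20.9%, against 18.0% of all genes) and the lowest in 2 (4.65%, against 24.8%). DESeq2's likelihood ratio test called 8 of the 43 (18.6%), against 43.1% of genes. The 2 members that were lowest in batch 2 were gst-1, with log2 differences of 0.29 and 0.28 for batches 3 and 4 over batch 2 (edgeR adjusted p = 0.00692), and gst-7, with 0.34 and 0.36 (0.00741).

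The 9 members that edgeR called highest in batch 2 were gsto-1, gst-6, gst-41, gst-10, gst-28, gstk-2, gst-15, gst-3 and gst-26. DESeq2's likelihood ratio test did not call gst-10 (adjusted p = 0.0869), gst-15 (0.0652), gst-3 (0.17) or gst-26 (0.151). It did call gst-24 (0.0097), which edgeR did not (adjusted p = 0.135). The log2 differences of gst-24 for batches 3 and 4 over batch 2 were 0.68 and 0.62. The differences of gsto-1 were -1.36 and -1.93 for batches 3 and 4 against batch 2 (edgeR adjusted p = 0.0102), and those of gst-6 -1.12 and -1.82 (0.0120). gst-41 stood at 1.93, 1.63 and 0.463 CPM with the empty vector and at 1.69, 1.14 and 0.462 CPM in the gtr-1-labelled libraries, low in batch 4 under either treatment, with differences of -0.40 and -1.96 (edgeR adjusted p = 0.0131). gstk-2 gave -1.29 and -1.45 (0.0215), while gstk-1, the member with the lowest treatment value, did not differ between batches past the threshold (-0.05 and -0.12, edgeR adjusted p = 0.736).

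Markers of tissues moved with the batches as well. The summed level of 8 germline markers was 5498 and 6025 CPM in the batch 2 libraries and from 8395 to 8945 CPM in the other 4. That of 8 sperm markers was 38.1 and 47.0 CPM in batch 2 and from 2.72 to 11.2 CPM elsewhere, and that of the intestine markers 709 and 763 CPM against 392 to 594 CPM. The sums of 8 hypodermis markers, the worm's skin, were 1357 and 2037 CPM in batch 2 and 809 to 1270 CPM in batches 3 and 4. These sums do not hold for every marker. In edgeR 5 of the 8 hypodermis markers were called highest in batch 2, and 2, nhr-23 and lin-26, lowest. The log2 differences for batches 3 and 4 over batch 2 were 0.56 and 0.65 for nhr-23, and 0.45 and 0.45 for lin-26. Of the 8 intestine markers 5 were called highest in batch 2. spl-1 was lower there (0.23 and 0.17, edgeR adjusted p = 0.0538). Between treatments, 3 of the 8 hypodermis markers were higher at an unadjusted p under 0.05, against 4.99% of all genes tested. Of the 8 germline markers 1 was lower (glh-1), against 5.68%. None of the 7 muscle, 9 neuron or 8 sperm markers passed. No marker of these lists was at 0 in any library. The rol-6 counts, among the hypodermis markers, can include the plasmid copy. The part of these tissues in the levels of the family was not tested.

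Of 4 genes that make glutathione or return it to its reduced form, none passed at an unadjusted p under 0.05 or the adjusted tests. gcs-1, the catalytic subunit of the rate-limiting ligase, had a log2 fold change of -0.08 ± 0.03 (SE), its 95% interval running from -0.16 to 0.00 (edgeR adjusted p = 0.482). The values were -0.03 ± 0.05 for gss-1, glutathione synthetase (edgeR adjusted p = 0.844), and 0.06 ± 0.03 for gsr-1, glutathione reductase (0.576). Of 8 glutathione peroxidases, which spend glutathione on peroxides, gpx-3 alone was at an unadjusted p under 0.05 (0.46 ± 0.16, edgeR adjusted p = 0.417). Of 14 glutaredoxins, thioredoxins and peroxiredoxins tested, trxr-2, the mitochondrial thioredoxin reductase, was higher (0.20 ± 0.07), and trxr-1, the cytosolic one (-0.09 ± 0.03), and glrx-3 (-0.13 ± 0.05) were lower at an unadjusted p under 0.05, and none passed the adjusted tests. The shares of all genes tested at the unadjusted threshold were 4.99% higher and 5.68% lower. None of 3 glyoxalase genes passed at either level.

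MRP pumps, which carry glutathione conjugates and other organic anions out of cells, were called in part by DESeq2 only. It called 2 of the 8 higher, against 1.74% of genes, and 0 lower, against 0.667%. mrp-5, which exports heme from the worm intestine, stood at 309, 273 and 243 CPM with the empty vector and at 401, 390 and 282 CPM in the gtr-1-labelled libraries, higher in each pair. Its log2 fold change was 0.37 ± 0.06 (SE, edgeR adjusted p = 0.150, DESeq2 adjusted p = 9.98e-06). mrp-1 stood at 64.9, 61.4 and 54.8 CPM and at 88.1, 80.3 and 61.4 CPM, which gave 0.33 ± 0.06 on the log2 scale (SE, edgeR adjusted p = 0.187, DESeq2 adjusted p = 0.00490). The median log2 fold change over the 8 pumps was 0.04. In every pair 3 of the 8 were higher, against 13.5% of all genes tested, and 2 were lower, against 22.6%. For mrp-8 alone the groups did not overlap, with each gtr-1-labelled library below each empty vector library, as in 3.07% of all genes. Its log2 fold change was -0.26 ± 0.11 (SE, edgeR adjusted p = 0.501).

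The zeta-class enzyme gst-42 was higher in every pair, as were 4 of the other 5 genes of its pathway. Of all genes tested, 13.5% were higher in every pair. Zeta enzymes are maleylacetoacetate isomerases of phenylalanine and tyrosine breakdown. gst-42 (WBGene00001790, chromosome X, 11726264 to 11727936) stood at 12.2, 10.35 and 8.31 CPM with the empty vector and at 13.7, 12.1 and 10.7 CPM in the gtr-1-labelled libraries, and the groups overlapped. Its log2 fold change was 0.25 ± 0.10 (SE, 95% interval from -0.00 to 0.50, edgeR adjusted p = 0.475). The other zeta gene, gst-43, gave -0.05 ± 0.11 (edgeR adjusted p = 0.881).

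Of the 6 genes of phenylalanine and tyrosine breakdown, 5 were higher at an unadjusted p under 0.05, against 4.99% of all genes tested. None passed the edgeR adjusted test and 1 was higher in DESeq2, against 1.74% of genes. The median log2 fold change of the 6 was 0.27, and 0.26, 0.29 and 0.29 in the pairs of batches 2, 3 and 4. The 8 intestine markers had the same median of 0.27, with pair medians of 0.04, 0.47 and 0.24. Of these markers 8 of 8 were above 0, against 41.6% of all genes tested. The part of the markers' tissue in the values of these enzymes was not tested. hpd-1, the dioxygenase that makes homogentisate, stood at 71.4, 59.5 and 48.4 CPM with the empty vector and at 91.1, 82.0 and 67.5 CPM in the gtr-1-labelled libraries. Its log2 fold change was 0.43 ± 0.04 (SE, edgeR adjusted p = 0.0762, DESeq2 adjusted p = 0.000101). hgo-1, the next enzyme, gave 0.31 ± 0.07, and fah-1, which acts on the product of gst-42, 0.26 ± 0.06. tatn-1, the tyrosine aminotransferase, gave 0.28 ± 0.11 but -0.01 in batch 2, and pah-1, phenylalanine hydroxylase, 0.19 ± 0.07 (log2 fold change ± SE, edgeR adjusted p from 0.225 to 0.452 for these 4).

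**Figure D5:**
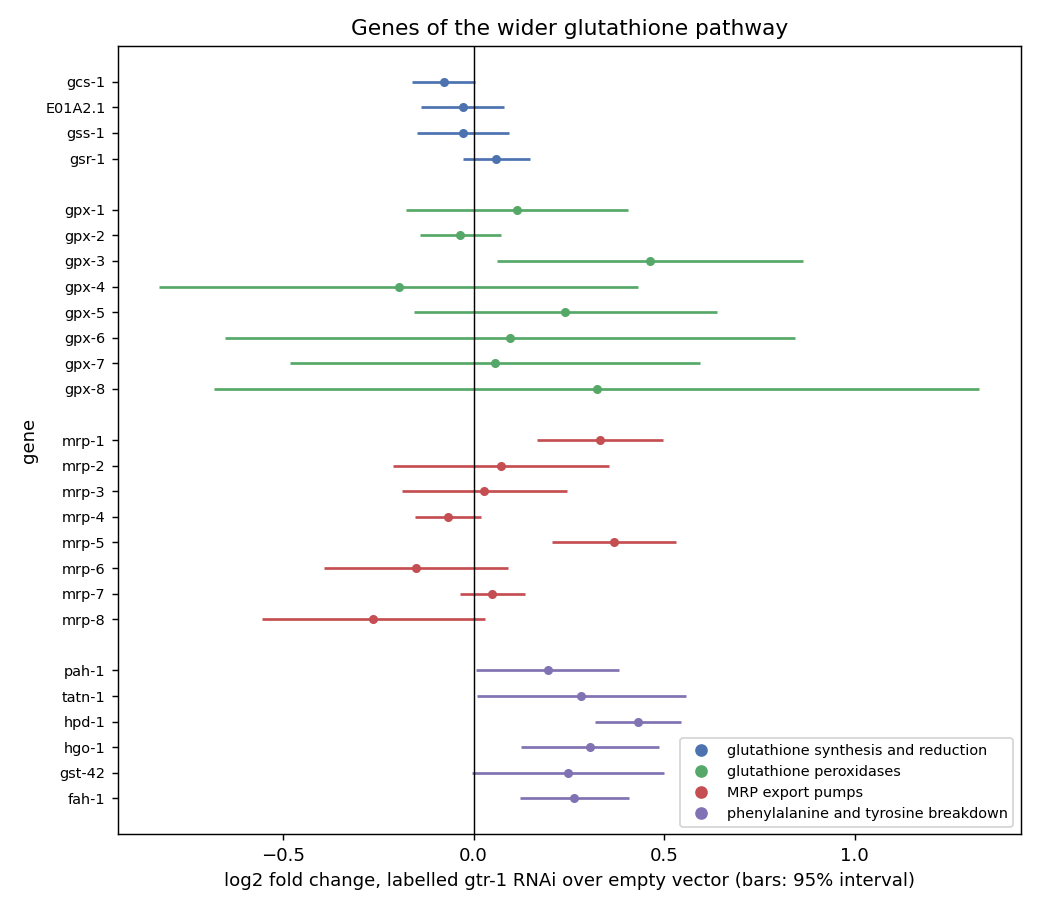
Log2 fold change, labelled gtr-1 RNAi over empty vector, with its 95% interval from edgeR, of genes of glutathione synthesis and reduction, glutathione peroxidases, MRP pumps and phenylalanine and tyrosine breakdown. The 6 genes of tyrosine breakdown all lie above 0, whereas the 4 genes of glutathione synthesis and reduction lie within 0.08 of it.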

How the data were processed

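Poly(A) libraries were made with a stranded KAPA kit, per the labels' protocols. Tools listed in the submitters' processing notes are TopHat2 2.1.1, cutadapt 2.10, DESeq2 1.36.0 and HTSeq 2.01, with build WBcel235. Settings of these tools and the use of strand in counting: not given in the sources used here. All tests ran on the raw counts per gene that the authors deposited. The deposited normalized signal equals the count over 1 constant per library, was checked and not otherwise used, and 6 deposited columns of batch-corrected values were not used.

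Groups and batches came from the labels. edgeR 4.0.16 in R 4.3.3 was run on all genes that passed filterByExpr (minimum count 10), with TMM scaling, the quasi-likelihood test, the batch as a term and Benjamini-Hochberg adjustment. That fit has 2 residual and 3.16 prior degrees of freedom. The SE was derived from the fold change and the F statistic. Batches were compared by the F test of both batch terms. Pair values are differences of log2 CPM (prior count 2). CPM are after TMM scaling. DESeq2 1.42.0 was an alternative. The script was tested on simulated data. Exon lengths and coordinates are from Ensembl release 115 of WBcel235.

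Batch labels give the pairing. Across genes, deviations from the group means correlated at 0.71, 0.47 and 0.66 within batches 2, 3 and 4, and at -0.71 to 0.52 between batches, the highest between empty vector of batch 3 and gtr-1-labelled of batch 4. The members and lists were chosen with earlier results of these data known. Described singly are members at an unadjusted p under 0.05 or called by DESeq2, the 5 most abundant per length, gst-1, gst-4, gst-10, gst-24, gst-42, gsto-1 and gstk-1, and up to 8 called between batches. A planned comparison of protein sequences was not made. The alternatives were no batch term, no filter, a minimum count of 50, DESeq2 size factors, DESeq2, an adjusted p under 0.1, and leaving out each pair and each library.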

Additional observations from a re-analysis of the deposited data

How the results depend on the processing

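With no batch block in the model, no member passed the adjusted p, and 2 members in place of 8 were higher at an unadjusted p under 0.05 (1 lower in both). The members' median was 0.11 with the block and 0.09 without it. Among single genes, gst-24 changed sign to -0.02 without the block, gstk-2 from 0.12 to -0.001 and gst-7, at 0.002 with it, to -0.0004. DESeq2's Wald test called 2 members higher, where edgeR called 0; the cause was not tested. Leaving out a pair or a library gave 0 to 3 members called higher and 0 lower. The number past the unadjusted threshold was then 6 to 11 higher and 1 lower, with a median log2 fold change from 0.12 to 0.21, the highest without the empty vector library of batch 3. No share of all genes at that unadjusted threshold was set beside these counts in the changed settings, including that without the block. These counts alone therefore do not tell the members from all genes. The members called at the adjusted p without the batch 2 pair or its empty vector library were gsto-1, gst-28 and gst-19. Without the gtr-1-labelled library of batch 2 they were gsto-1 and gst-19, and without the batch 3 pair gsto-1. All genes were called more often there too, at 7.69% without the batch 2 pair against 0.0902% in the full set. The shares were 6.53% without its empty vector library, 5.17% without its gtr-1-labelled library and 1.55% without the batch 3 pair. Leaving out 1 library leaves its partner to the batch term. It thus rests on the same remaining pairs as the test without that pair, but the calls need not repeat. For batch 3 the shares called were 0.0553% without its empty vector library and 0.074% without its gtr-1-labelled library. gsto-1 was not called in either of those settings. Dropping batch 2, in whole or by 1 library, turned the sign of gst-4 (-0.2, range -0.20 to 0.32), as did that of gst-24 (-0.23, range -0.23 to 0.25). gst-7 ranged from -0.02 to 0.10 and gst-1 from -0.07 to 0.008. The number of members called between batches was 7 with no treatment term, where it was 11 with it. The share of the family in the library was 0.003 percentage points higher in the gtr-1-labelled libraries, and 0.00073 to 0.0043 with a pair left out. Depth limits the 25 tested members under 5 CPM per kilobase, whose SE ran from 0.16 to 0.68, where it was at most 0.23 among the other 18.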
